A study of Drosophila melanogaster with 6 samples.

Results

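The antioxidant enzymes and their cnc-Keap1 regulators were followed as 10 genes chosen by name: Sod1, Sod2, Sod3, Cat, Gclc, Gclm, Trxr1, Jafrac1, Keap1 and cnc. All 10 were found among the 17483 genes of the table, and all 10 passed the filter on low values. Sod1 and Trxr1 stand in the table under older symbols (Sod and Trxr-1), and Jafrac1 is listed as Prx2 in the current gene name table. The brains came from Drosophila melanogaster of the strain w1118, which carries a white mutation and no named transgene, at an age of 15 days. Poly(A) RNA of hand-dissected brains was sequenced in 6 libraries, 3 for normal food and 3 for normal food with added spermidine, a polyamine. The labels give neither the spermidine dose, the flies' sex nor the number of brains per library. Nothing says that replicates were separate cultures, so every p-value reflects only the spread among these libraries, and that spread may be technical.

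Superoxide, a by-product of respiration, is converted to hydrogen peroxide by superoxide dismutases. Catalase and peroxiredoxins then remove the peroxide, and peroxiredoxins are recharged by thioredoxin and thioredoxin reductase at the expense of NADPH. Flies lack a glutathione reductase, and the thioredoxin system recycles their glutathione as well. The transcription factor made by cnc, the fly counterpart of mammalian Nrf2, drives many of these genes when oxidants or xenobiotics release it from Keap1, which otherwise holds it back.

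In the brain all 10 genes were expressed, and none passed the test between the foods. The largest difference was that of the peroxiredoxin gene Jafrac1, 1.18 times as high on spermidine food, followed by Sod3, Trxr1 and Cat. The glutamate-cysteine ligase genes Gclc and Gclm, Sod2, Keap1 and cnc stood at 0.967 to 1.03 times their normal food level, and Sod1 at 1.05 times. Outside the 10 genes, CG8036, a transketolase gene of the pentose phosphate pathway, which feeds NADPH to this system, rose, at 1.77 times its mean on normal food.

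The libraries were checked against cell type markers before the genes were compared. All 8 neuronal markers and all 7 glial markers were expressed, with summed levels of 2010 to 2203 FPKM (fragments scaled to gene length and library size) for neurons and 1833 to 2166 FPKM for glia over the 6 libraries. The 10 photoreceptor markers, which mark the retina, summed to 1532, 10651 and 6774 FPKM in normal food replicates 1, 2 and 3 and to 13682, 9800 and 11977 FPKM on spermidine food. Normal food replicate 1 therefore stood apart, and values without it are given below where a result turns on it. The 11 fat body markers summed to between 1930 and 2523 FPKM on normal food and between 9661 and 10704 FPKM on spermidine food, and 5 of the 8 tested rose (fit, Apoltp, Yp1, Yp2 and Yp3). Most of the spermidine food sum was yolk protein RNA, with means of 1340 FPKM for Yp1, 3888 for Yp2 and 4162 for Yp3. The lipid carrier gene apolpp went from 133 to 211 FPKM and did not pass (limma, adjusted p = 0.0931). The storage protein genes Lsp1alpha and Lsp1gamma were below the filter, as was Fbp1, whose mean was 0.2155 FPKM on normal and 0.1731 FPKM on spermidine food. Lsp2 had 0.814 to 2.67 FPKM on normal food against 319, 14.5 and 184 FPKM with spermidine, and Lsp1beta 0.775 to 7.765 FPKM against 70.01, 1.253 and 38.85 FPKM; neither passed. In whole-tissue RNA, more cells of a type and more RNA per cell cannot be told apart. The 8 haemocyte markers summed to 62.1 to 82.5 FPKM on normal food and 67.7 to 88.9 FPKM on spermidine food, and 1 of the 7 tested rose (Sr-CI). Of those 7, 4 did not overlap and were higher with spermidine (NimC1, eater, Sr-CI and srp), against 17.3% of all genes in that direction. The authors' deposited p-values called the same 4 higher, against 8.18% of all genes. Hml, PPO1 and PPO2 overlapped, and PPO2, with means of 43.2 and 40.6 FPKM, was the largest part of the sum. The 5 muscle markers summed to at most 39.95 FPKM in any library. The part that retina, fat body or haemocytes had in any difference below was not tested. Without read counts per library, the step that 1 read makes in sparse genes put the depth of the shallowest library, spermidine food replicate 3, at 0.812 of that of normal food replicate 1. The neuronal sums were 2143 to 2203 FPKM on normal food and 2010 to 2049 FPKM on spermidine food, 2 of the 8 markers fell (Syn and Gad1), and no glial marker passed the test. In FPKM 4 of the 8 neuronal markers did not overlap, all lower with spermidine, against 10.8% of all genes in that direction. The authors' deposited p-values called 7 of the 8 lower, against 8.71% of all genes. FPKM and the deposited values differed for elav, nSyb and ChAT. Their log2 fold changes in FPKM were 0.0486, 0.0016 and 0.0037, against deposited fold changes of -1.2, -1.17 and -1.12.

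**Figure D1:**
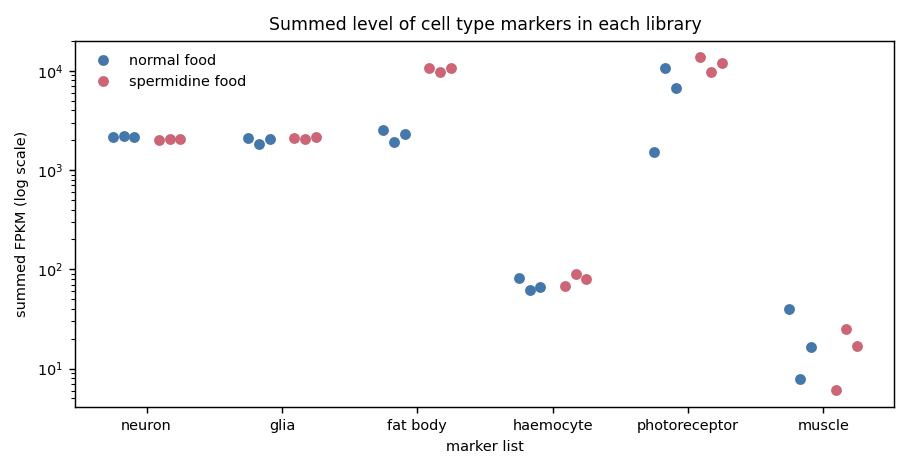
Summed FPKM of 6 lists of cell type markers in each library (log axis), with normal food in blue and spermidine food in red, replicates 1 to 3 from left to right. The fat body sums do not overlap between the foods, and the photoreceptor sum of normal food replicate 1, at 1532 FPKM, lies below the other 5.

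FPKM is scaled by gene length, so the levels of the 10 genes can be set in order. Averaged over the 6 libraries, Sod1 had 387 FPKM, Sod3 242, Jafrac1 171.5, Sod2 107, Trxr1 89.3, Gclm 32.6, Gclc 31.2, Cat 30.9, cnc 24.3 and Keap1 8.32 FPKM. Sod1 stood at the 98.1 percentile of the 10392 genes tested and Keap1 at the 34.3 percentile. Most neighbours in this order kept it in 6 of 6 libraries. Gclm and Gclc did so in 4 of 6, as did Gclc and Cat, so neither of these pairs differed in level beyond its spread. The spread within a food was small, with a coefficient of variation under 10% on normal food for all 10 genes. The widest was 11.8%, for Gclm on spermidine food. Normal food replicate 2 was the lowest normal food library for 8 of the 10 genes. That library also had the lowest scaling factor by the median of ratios over all genes, at 0.971 against 0.999 to 1.018 in the others.

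**Figure D2:**
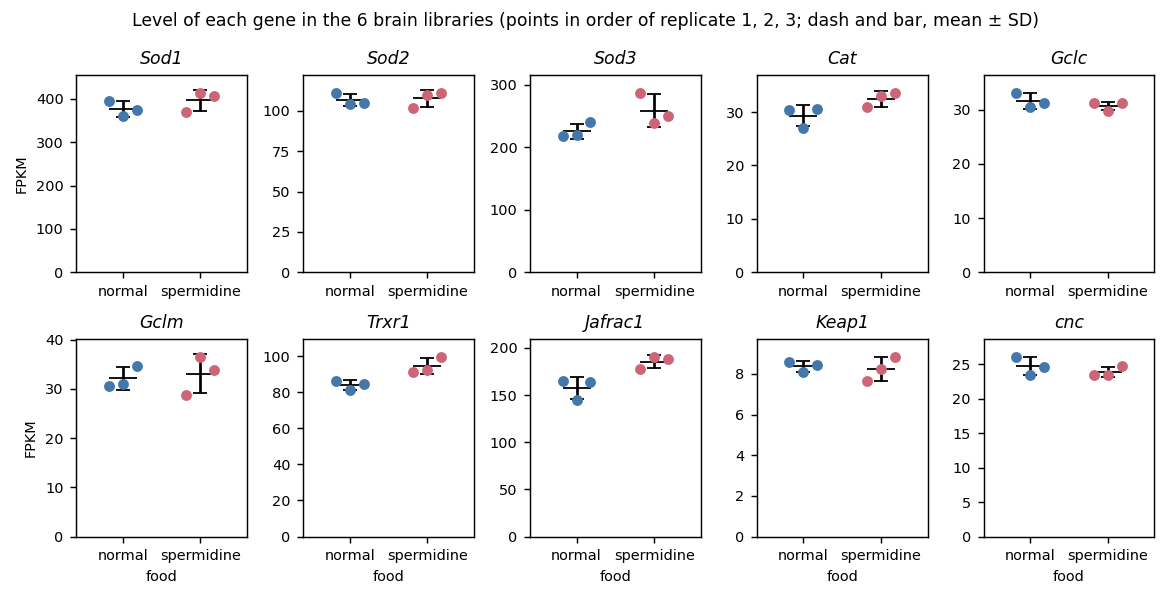
FPKM of the 10 genes in each library (vertical axes from 0, 1 panel per gene), with normal food in blue and spermidine food in red, and the dash and bar giving mean ± SD of 3 libraries. Only in Cat, Trxr1 and Jafrac1 do the points of the 2 foods not overlap, and in Cat the gap lies between 30.6 and 30.9 FPKM.

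The superoxide dismutases were compared first. Sod1 (FBgn0003462, 3L, 11112281 to 11113740, minus strand) encodes the cytosolic copper-zinc enzyme. It had 395, 360 and 374 FPKM in normal food replicates 1, 2 and 3 and 369.5, 415 and 406 FPKM on spermidine food. The groups overlapped, with spermidine food replicate 1 below normal food replicates 1 and 3. Spermidine over normal food, the log2 fold change was 0.08 ± 0.06 (SE, n = 3 each; limma, adjusted p = 0.545). Its 95% interval ran from 0.949 to 1.17 times, on the log2(FPKM + 1) scale used for all fold changes here.

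Sod2 (FBgn0010213, 2R, 16772785 to 16773915, minus strand) encodes the manganese enzyme of the mitochondrial matrix. It had 111, 104.5 and 104.9 FPKM on normal food and 102, 110.1 and 111 FPKM on spermidine food, so that each food spanned nearly the same range. The difference was 0.01 ± 0.05 on the log2 scale (SE; limma, adjusted p = 0.91), with an interval of 0.931 to 1.09 times. Its sign turned under other scalings of the libraries.

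Sod3 (FBgn0033631, 2R, 11380347 to 11384114, minus strand) encodes the extracellular copper-zinc enzyme. Its libraries read 218, 219 and 239.7 FPKM on normal food and 288, 238 and 250.4 FPKM on spermidine food. Spermidine food replicate 1 was far above the rest, while replicate 2 of that food lay just below normal food replicate 3. The log2 fold change of 0.19 ± 0.08 (SE) did not pass (limma, adjusted p = 0.239), and its interval ran from 0.9998 to 1.31 times. Without spermidine food replicate 1 it was 0.11 (limma, adjusted p = 0.399). That library also had the highest photoreceptor sum and, with replicate 3, the higher fat body sums. Normal food replicates 1 and 2, with photoreceptor sums of 1532 and 10651 FPKM, had 218 and 219 FPKM of Sod3. Spermidine food replicate 3, with the highest fat body sum, had 250.4 FPKM of Sod3. The part of either tissue in the Sod3 values was not tested. As shares of the summed dismutase FPKM, Sod1 made up 53.1% ± 1.31 on normal and 51.97% ± 2.93 on spermidine food (SD of 3 libraries). The share of Sod3 was 31.9% ± 1.63 and 33.9% ± 3.51. The share of Sod2 was 15.1% ± 0.399 and 14.1% ± 0.603, with no overlap between the foods (exact permutation test, two-sided, p = 0.1, the smallest that 3 against 3 libraries can give).

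Cat (FBgn0000261, 3L, 18822604 to 18828188, plus strand) encodes catalase, which splits hydrogen peroxide in peroxisomes. It had 30.4, 27.0 and 30.6 FPKM on normal food and 30.9, 32.96 and 33.7 FPKM on spermidine food. All 3 spermidine food libraries were above all 3 on normal food, by a narrow margin that rested on spermidine food replicate 1 and normal food replicate 3. A log2 fold change of 0.14 ± 0.06 (SE) did not pass (limma, adjusted p = 0.251), with an interval of 0.997 to 1.22 times. Without normal food replicate 2, the lowest library, it was 0.09 (limma, adjusted p = 0.418).

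The thioredoxin branch held the 2 smallest p-values of the 10 genes. Jafrac1 (FBgn0040309, X, 13329824 to 13331994, plus strand) encodes a cytosolic peroxiredoxin that reduces hydrogen peroxide with electrons from thioredoxin. It had 164, 144 and 164 FPKM on normal food and 178, 191 and 188 FPKM on spermidine food. The 2 foods did not overlap, and the closest libraries were normal food replicate 1 and spermidine food replicate 1. Its mean was 158 ± 11.4 FPKM on normal food, against 185 ± 6.63 FPKM with spermidine (SD over 3 libraries). The log2 fold change was 0.24 ± 0.06 (SE), with an interval of 1.06 to 1.31 times. With limma the adjusted p was 0.0922, above the threshold of 0.05. It ranged from 0.0609 to 0.241 over the 15 alternative fits, and none passed. Without normal food replicate 1, the library of low retina signal, the log2 fold change was 0.27 (limma, adjusted p = 0.112). Relative to Sod1 within the same library, Jafrac1 stood at 0.418 ± 0.0189 on normal and 0.468 ± 0.0119 on spermidine food (SD of 3 libraries), without overlap (exact permutation test, two-sided, p = 0.1). That ratio does not depend on how libraries are scaled.

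Trxr1 (FBgn0020653, X, 8242528 to 8248033, plus strand) encodes thioredoxin reductase, which also keeps glutathione reduced in flies. It had 86.3, 81.2 and 84.6 FPKM on normal food and 91.2, 92.5 and 99.7 FPKM on spermidine food. The foods did not overlap, and spermidine food replicate 3 was the highest. The log2 fold change was 0.17 ± 0.05 (SE), with an interval of 1.04 to 1.21 times (limma, adjusted p = 0.1075). Without normal food replicate 1 it was 0.19 (limma, adjusted p = 0.141), and over the 15 alternative fits the adjusted p ranged from 0.0922 to 0.238. The gene sni lies across Trxr1 on the other strand. The library kit is stranded, but no source used here says whether strand was used in counting. The ratio of Jafrac1 to Trxr1 was 1.87 ± 0.0829 and 1.965 ± 0.0891 on the 2 foods (SD of 3 libraries), with overlap.

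Glutamate-cysteine ligase makes the first and limiting step of glutathione synthesis from a catalytic subunit, Gclc, and a modifier subunit, Gclm. Gclc (FBgn0040319, X, 8102181 to 8116147, minus strand) had 33.2, 30.5 and 31.2 FPKM on normal food and 31.2, 29.9 and 31.2 FPKM on spermidine food. The values overlapped almost fully. Its log2 fold change was -0.04 ± 0.04 (SE; limma, adjusted p = 0.676), with an interval of 0.905 to 1.05 times, the narrowest of the 10 genes.

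Gclm (FBgn0046114, 3R, 22685006 to 22686510, minus strand) had 30.5, 31.1 and 34.8 FPKM on normal food and 28.8, 36.6 and 33.9 FPKM on spermidine food. Spermidine food replicate 1 was the lowest of all 6 and replicate 2 of that food the highest. For Gclm the log2 fold change was 0.04 ± 0.09 (SE; limma, adjusted p = 0.858), and its interval, 0.8755 to 1.204 times, was the widest of the 10 genes. With libraries rescaled to equal sums its sign turned. The ratio of Gclm to Gclc was close to even, at 1.02 ± 0.0972 on normal and 1.08 ± 0.15 on spermidine food (SD of 3 libraries), and the foods overlapped (exact permutation test, two-sided, p = 0.6).

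Keap1 (FBgn0038475, 3R, 17073942 to 17079945, minus strand) encodes the adaptor that ties the cnc protein to a Cul3 ubiquitin ligase. It was the least abundant of the 10 genes, with 8.61, 8.096 and 8.42 FPKM on normal food and 7.67, 8.25 and 8.85 FPKM on spermidine food. The lowest and the highest library were both on spermidine food. For Keap1 the log2 fold change was -0.02 ± 0.06 (SE; limma, adjusted p = 0.889), with an interval of 0.887 to 1.096 times.

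The gene cnc (FBgn0262975, 3R, 23185580 to 23226711, minus strand) encodes the basic leucine zipper factor of the pathway. It had 26.1, 23.5 and 24.6 FPKM on normal food and 23.5, 23.4 and 24.7 FPKM on spermidine food, with overlap. For cnc the log2 fold change was -0.05 ± 0.05 (SE; limma, adjusted p = 0.6315), with an interval of 0.889 to 1.05 times. The current Ensembl annotation gives cnc 16 coding transcripts. Only the long forms are known to bind Keap1, and the gene-level values do not separate them from the short forms of head development. The gene fzo lies within its span on the same strand, and Irk1 and CG46310 on the other. The ratio of cnc to Keap1 was 2.95 ± 0.07 on normal and 2.895 ± 0.145 on spermidine food (SD of 3 libraries), and the foods overlapped.

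Over the 10 genes, limma called none at an adjusted p of 0.05, while 4.72% of all 10392 genes tested passed, 3.20% higher and 1.52% lower. The whole fit called 491 genes, with 333 higher on spermidine food, or 338 higher and 354 lower when libraries were rescaled to equal sums without the 10 most abundant genes. At an adjusted p of 0.1 limma called 1 of them, Jafrac1, against 9.40% of all genes (6.19% higher). At an unadjusted p under 0.05 the 10 genes held 2 (Jafrac1 and Trxr1), against 21.0% of all genes tested. Of the 10 genes 3 had foods that did not overlap, all higher on spermidine food, against 17.3% of all genes in that direction, 10.8% in the other and 28.1% in either. Their median log2 fold change was 0.06, against 0.02 over all genes tested, and 7 of 10 had a higher mean on spermidine food, as did 57.7% of all genes. The 95% intervals of the 10 genes all lay between 0.8755 and 1.31 times.

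**Figure D3:**
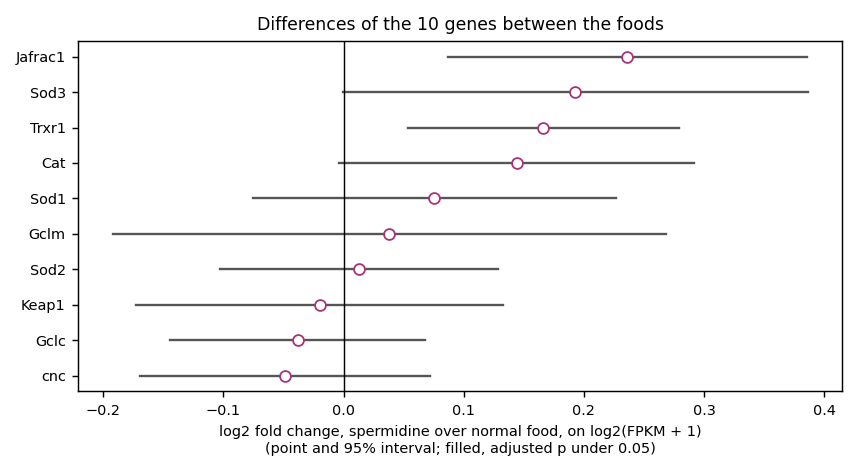
Log2 fold change of the 10 genes on the log2(FPKM + 1) scale, spermidine over normal food, with the 95% interval from limma. No point is filled, since none had an adjusted p under 0.05, and only the intervals of Jafrac1 and Trxr1 stay above 0.

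The authors' deposited table gives a second reading, from mean normalized counts per food that come from the same 6 libraries. In the authors' deposited table Jafrac1 had mean counts of 6813.86 and 7925.3, a fold change of 1.16, and Trxr1 had 7766.08 and 8647.6, a fold change of 1.11. Those of the least counted gene, Keap1, were 1220.7 and 1174.55 in the authors' deposited table. When the p-values of the authors' deposited table were adjusted over these 10392 genes, Jafrac1 (adjusted p = 6.95e-05) and Trxr1 (adjusted p = 0.00408) were higher and the other 8 did not pass. Over all genes those p-values called 16.9%, with 8.18% higher and 8.71% lower. In the authors' deposited table Sod3 had a fold change of 1.13 (adjusted p = 0.0579) and Cat 1.1 (adjusted p = 0.062). The direction was the same as in FPKM for 9 of the 10 genes, the exception being Sod2, whose deposited fold change is -1. For none of the 10 genes did the deposited fold change differ from that of FPKM by more than 0.05.

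The genes around these 10 were read from 6 lists. They hold 63 genes, of which 54 were tested. Of these, 2 rose, 1 fell and 51 did not pass, against 4.72% of all genes called, so the count was near the background. A higher FPKM mean with spermidine was seen in 47 of the 54, against 57.7% of all genes. Of those 47, Gss1, Gss2, Rpi, Men-b, nej, MtnD and Ctr1A had negative fold changes in the authors' deposited table, and no gene turned the other way. Gss1 and Gss2, with identical FPKM, are each counted among the 47. The median log2 fold change of the 54 was 0.08, against 0.02 over all genes tested. The deposited p-values called 9 of the 54, with 7 higher and 2 lower, a share close to the 16.9% they called over all genes.

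Among the thioredoxin and peroxiredoxin genes, 8 of 12 were tested and 1 rose, Prx6b, a peroxiredoxin gene that the table lists as Prx2540-1. It had 6.05, 5.37 and 5.71 FPKM on normal food and 8.13, 8.25 and 7.46 FPKM on spermidine food, with a clear gap between the foods. Prx6b had a log2 fold change of 0.42 ± 0.07 (SE; limma, adjusted p = 0.0256). The call ended without normal food replicate 2 or 3 (limma, adjusted p = 0.0695 and 0.073) and without spermidine food replicate 1, 2 or 3 (limma, adjusted p = 0.0825, 0.07375 and 0.0771). Prx6b lies close to its paralogue Prx6c on 2R, and reads may have been shared between them. With no filter on low values the adjusted p in limma was 0.0556. Prx6c itself had a log2 fold change of 0.28 ± 0.096 (SE; limma, adjusted p = 0.17).

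Trx2, the main cytosolic thioredoxin and the electron donor of Jafrac1, had 102, 95.2 and 100.5 FPKM on normal food and 124.5, 118 and 111 FPKM on spermidine food. The foods did not overlap, and the difference of 0.25 ± 0.05 on the log2 scale (SE) fell just short of the threshold (limma, adjusted p = 0.0564, range 0.0496 to 0.145 over the 15 alternative fits). Over the thioredoxin and peroxiredoxin list, 4 of the 8 genes tested did not overlap and were higher with spermidine (Prx6b, Prx6c, Trx2 and Txl), against 17.3% of all genes, and Jafrac2, Prx3, Prx6a and Srx overlapped. Of the 4, Prx6b and Prx6c may share reads. The gap of Txl lay between 34.06 and 34.29 FPKM (limma, adjusted p = 0.481), and its deposited fold change was 1.0. Prx3, the mitochondrial peroxiredoxin, had 42.4 ± 2.07 and 45.5 ± 1.98 FPKM (SD over 3 libraries; limma, adjusted p = 0.332). TrxT and dhd, thioredoxins of the germ line, and Trxr2, a second reductase, were below the filter. Prx5 had no usable estimate in any library and was not tested.

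The list of NADPH supply held the largest differences of the 6 lists. It joins genes whose enzymes make NADPH (Zw, Pgd, Men, Men-b and Idh), none of which passed, to Rpi, Rpe, Taldo and CG8036. All 9 were tested. Each had its higher FPKM mean with spermidine, against 57.7% of all genes. In the authors' deposited table Rpi and Men-b were lower, with fold changes of -1.03 and -1.0, and the other genes of the list were higher. In limma 1 of the 9 rose. That gene was CG8036 (FBgn0037607, 3R, 8667868 to 8673702), annotated in the table with transketolase activity. It had 58.9, 46.7 and 59.8 FPKM on normal food and 83.4, 106 and 103 FPKM on spermidine food, so that even the lowest spermidine food library was far above the highest on normal food. CG8036 had a log2 fold change of 0.81 ± 0.13 (SE), with an interval of 1.42 to 2.18 times (limma, adjusted p = 0.0259). Without normal food replicate 1 or 3 the adjusted p in limma was 0.0505 and 0.0551, and without spermidine food replicate 2 or 3 it was 0.06605 and 0.115. With no filter on low values it was 0.052 (limma).

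The other 3 pentose phosphate genes that stood apart did not pass. Taldo, transaldolase, had 50.6, 35.8 and 48.5 FPKM on normal food and 65.8, 70.8 and 71.8 FPKM on spermidine food, a log2 fold change of 0.63 ± 0.13 (SE; limma, adjusted p = 0.0509). Without normal food replicate 2 it passed (limma, adjusted p = 0.022). Pgd, 6-phosphogluconate dehydrogenase, an NADPH-making step, had 17.5, 12.3 and 15.8 FPKM and 20.4, 22.4 and 22.9 FPKM (limma, adjusted p = 0.0783). Zw, glucose-6-phosphate dehydrogenase, the entry step of the pathway, had 2.38, 1.53 and 2.04 FPKM and 2.84, 3.37 and 3.48 FPKM (limma, adjusted p = 0.0788). In these 4 genes normal food replicate 2 was the lowest library. The foods did not overlap in them, 4 of the 9 genes of the list, against 17.3% of all genes in that direction, while the other 5 (Rpi, Rpe, Men, Men-b and Idh) overlapped. In the authors' deposited table all 4 were higher past the threshold, with fold changes of 1.61 for CG8036, 1.48 for Taldo, 1.37 for Pgd and 1.43 for Zw. Rpi and Rpe, the isomerase and epimerase of the same pathway, overlapped between the foods and had log2 fold changes of 0.06 ± 0.08 and 0.06 ± 0.13 (SE). The fat body sums, too, were higher with spermidine, going from 2523, 1930 and 2295 FPKM on normal food to 10601, 9661 and 10704 FPKM on spermidine food. Normal food replicate 2 was the lowest library there as well. Among the normal food libraries it was also the lowest in the glial, haemocyte and muscle sums, and the highest in the neuronal and photoreceptor sums. The part of the fat body in these 4 genes was not tested.

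**Figure D4:**
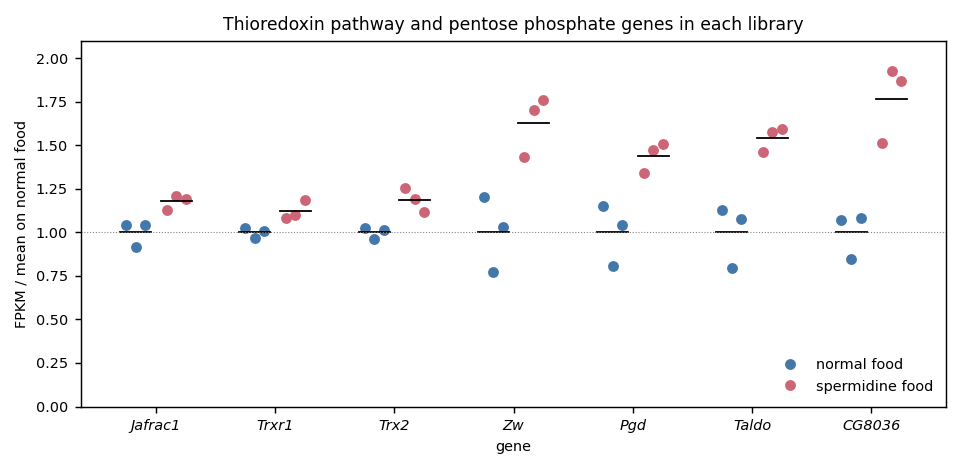
FPKM of 3 thioredoxin pathway genes and 4 pentose phosphate genes in each library, divided by the gene's mean on normal food (vertical axis from 0; short lines are group means, replicates 1 to 3 from left to right). The 7 genes were picked from those whose foods do not overlap, as in 17.3% of all genes in that direction. Of the thioredoxin and peroxiredoxin list, Prx6b, which passed the test, Prx6c and Txl do not overlap either and are not drawn. Spermidine food means of the 7 run from 1.12 times for Trxr1 to 1.77 times for CG8036, which of the 7 alone passed the test.

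Of 7 glutathione genes 6 were tested and none passed in limma. At an unadjusted p under 0.05 there was 1, the glutaredoxin gene Grx1, against 21.0% of all genes tested. Grx1 had 75.6 ± 2.15 and 84.9 ± 3.67 FPKM (SD over 3 libraries; limma, adjusted p = 0.0931). PHGPx, a glutathione peroxidase homologue, had 112 ± 8.35 and 119 ± 4.20 FPKM (SD over 3 libraries; limma, adjusted p = 0.446). The neighbouring synthetase genes Gss1 and Gss2 are listed with identical FPKM in every library and almost no counts, so their values cannot be told apart.

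Among 12 genes listed around the cnc-Keap1 switch, all tested, none rose and 1 fell. Not all of the 12 are partners of cnc or Keap1. The gene that fell was puc. It encodes a phosphatase that restrains JNK signalling and is itself a target of it. The gene puc had 16.2, 17.02 and 16.7 FPKM on normal food and 13.6, 14.6 and 14.1 FPKM on spermidine food, and fell by 0.22 on the log2 scale (SE 0.04; limma, adjusted p = 0.0464). The call ended when any 1 of the 6 libraries was left out, with an adjusted p in limma from 0.0752 without normal food replicate 1 to 0.152 without spermidine food replicate 3. It also ended with no filter on low values (0.0686) and with no intensity trend (0.0562). The partner of cnc on DNA, maf-S, had 93.85 ± 1.85 and 96.4 ± 5.91 FPKM, and Cul3, the ligase scaffold, 37.1 ± 0.585 and 39.0 ± 1.89 FPKM (SD of 3 libraries). The autophagy receptor ref(2)P, whose mammalian counterpart competes for Keap1, had 143 ± 7.31 and 149 ± 3.82 FPKM (SD of 3 libraries). The ligase subunit gene Roc1a had 98.2 ± 5.89 and 105.8 ± 1.13 FPKM (limma, adjusted p = 0.271), and the redox-sensitive dj-1beta 49.2 ± 2.62 and 54.8 ± 4.69 FPKM (SD over 3 libraries; limma, adjusted p = 0.299). GstD1, the glutathione transferase whose promoter serves as a reporter of cnc in flies, had 146, 114 and 161 FPKM on normal food and 175, 142 and 169 FPKM on spermidine food. These values overlapped and did not pass (log2 fold change 0.21 ± 0.14, SE; limma, adjusted p = 0.451). Without normal food replicate 2 the log2 fold change of GstD1 was 0.07.

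Of 8 other redox genes, 6 were tested and none passed in limma. At an unadjusted p under 0.05 there was 1, against 21.0% of all genes tested. That gene was SelR, a methionine sulfoxide reductase, with 119, 107 and 102 FPKM on normal food and 89.6, 95.4 and 95.3 FPKM on spermidine food, and no overlap (log2 fold change -0.22 ± 0.06, SE; limma, adjusted p = 0.116). In the authors' deposited table it was lower past the threshold, with a fold change of -1.26. Irc, the immune-regulated catalase, had 94.2 ± 16.4 and 117 ± 13.4 FPKM (SD over 3 libraries; limma, adjusted p = 0.284). Its log2 fold change was 0.32, or 0.17 without normal food replicate 2. Of 15 metal handling genes, 13 were tested and none passed in limma. At an unadjusted p under 0.05 there were 2, Ctr1B and ATP7, against 21.0% of all genes tested. Both are copper transporter genes, while Ctr1A, another of the list, was above that limit (limma, unadjusted p = 0.155). Ctr1B had 3.44 ± 0.31 and 4.66 ± 0.282 FPKM (limma, adjusted p = 0.0611), and ATP7 10.6 ± 0.787 and 12.1 ± 0.645 FPKM (SD over 3 libraries; limma, adjusted p = 0.2145).

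**Figure D5:**
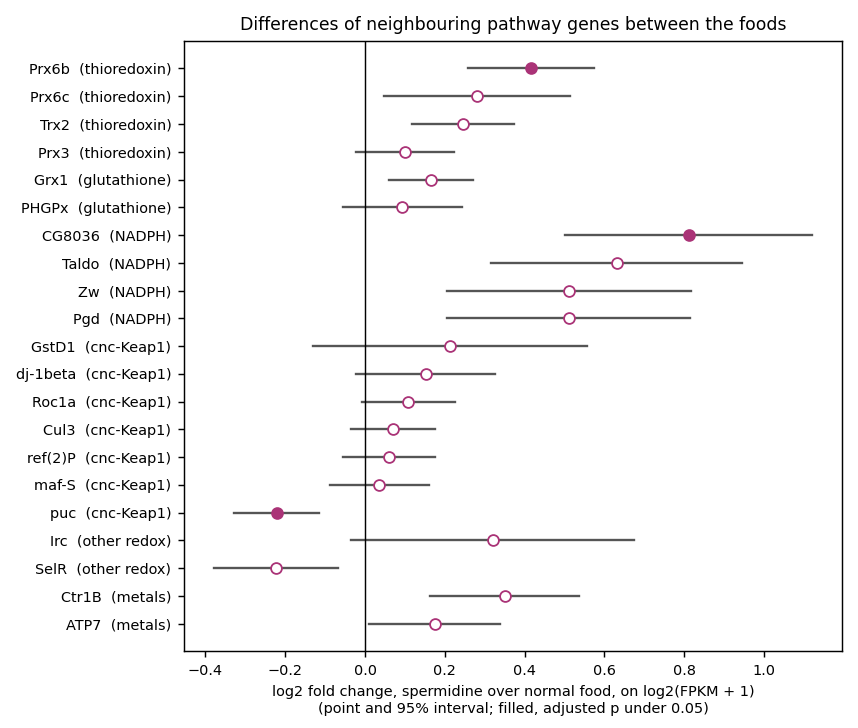
Log2 fold change of the named genes from the 6 neighbouring lists on the log2(FPKM + 1) scale, spermidine over normal food, with the 95% interval from limma and the list in brackets. The 3 filled points, Prx6b, CG8036 and puc, had an adjusted p under 0.05.

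The libraries also ordered the 10 genes among themselves. Over the 6 libraries, the gene most like Jafrac1 in log2(FPKM + 1) among 63 others, the remaining members and the 54 neighbours tested, was Taldo (Pearson correlation 0.99), and its most like partner among the 10 was Cat (0.96). Trxr1 was closest to Ctr1B (0.97) and, among the 10, to Jafrac1 (0.91). For cnc the closest gene was Gclc (0.904), and for Sod2 the closest of the 10 was Sod1 (0.88). Sod1 and Sod2 were both closest to Rpi (0.97 and 0.895), Sod3 to Cul3 (0.95), Gclc to Ho, a haem oxygenase gene (0.98), and Keap1 to Sod2 (0.84). Gclm had no close neighbour, with MtnA, a metallothionein gene, at 0.79. These correlations rest on 6 libraries that share their scaling and the difference between the foods, and they are given as a description. In the gene ontology terms of the table, 6 of the 10 genes carry determination of adult lifespan (Sod1, Sod2, Cat, Trxr1, Jafrac1 and cnc), out of 130 genes with that term. The term response to oxidative stress is carried by Sod1, Sod3, Cat, Jafrac1, Keap1 and cnc, out of 71 genes.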

How the data were processed

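Brains were dissected by hand and libraries made with a stranded mRNA kit, per the labels' protocols. The submitters' processing notes name HTSeq, Cufflinks and DESeq but give no version and no role. The table's gene models and coordinates follow Ensembl build 82, per the file headers. The authors deposited an FPKM value with a status for each gene and library. The mean normalized count of each food, as deposited, is a signal without values for single libraries. The deposited fold change is a signed score that never falls between -1 and 1, and the deposited p-value is unadjusted. No counts per library were used, so depth is unknown beyond its relative size, and no counting intervals are given.

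Genes with an FPKM of at least 0.5 in 3 libraries and a usable estimate on each food were tested with limma 3.58.1 (R 4.3.3) on log2(FPKM + 1), with an intensity trend and no covariates. Estimates whose status was not OK were taken as missing. Tests were two-sided, p-values were adjusted by Benjamini-Hochberg over all 10392 genes, and the threshold was 0.05. With 3 libraries a food, the smallest p of an exact permutation test is 0.1. The fit was tested on simulated data. Alternatives covered the pseudocount, filter, scaling, trend, replicate block, threshold, the authors' p-values and leaving out each library. The members, the lists and the marker lists were chosen with earlier results of these data known. From each neighbouring list the genes past the threshold and the 2 of smallest p among the rest are named. Ho and MtnA are named only as the closest genes by correlation. All others named from these lists were named after their values had been seen. They include Rpi, Rpe, Zw, GstD1, maf-S, Cul3, Prx3, ref(2)P, Txl, Ctr1A, Gss1, Gss2 and the genes not tested.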

Additional observations from a re-analysis of the deposited data

How the results depend on the processing

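Of the 10 genes, none passed in any limma fit at an adjusted p of 0.05, also with each library left out. The looser threshold of 0.1 called 1 and the authors' deposited p-values 2. Over all genes the count of 491 became 249 with no filter on low values, 252 with the replicate block, 977 at a threshold of 0.1 and 1755 with the authors' deposited p-values. It ranged from 55 (without spermidine food replicate 3) to 321 (without spermidine food replicate 2) when 1 library was left out. The share of higher calls was 67.8%, 48.8% with equal sums and 48.4% with the authors' deposited p-values. In the neighbouring lists the 3 calls became 0 with no filter and with the replicate block, 6 with an FPKM of at least 1 in all libraries, 5 with median-ratio scaling, 5 with equal sums, 9 at a threshold of 0.1 and 9 with the authors' deposited p-values, and ranged from 0 to 2 with 1 library left out. Same-numbered libraries correlated at -0.0513, -0.103 and 0.018 in their deviations from the group means. The numbers thus showed no pairing over the genes tested, which cannot exclude a pairing that touches only some genes.

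Of 170 values of the 10 genes under alternatives, 158 kept direction and call, 3 gained a call and 9 turned sign, all of the latter near 0. Changes of the filter, trend, replicate block or threshold leave these log2 fold changes as they are, so they could not turn a sign. Since none of the 10 was called in the main fit, none could lose a call. The log2 fold change of Sod2 became -0.0101 with median-ratio scaling and -0.0466 with equal sums, its deposited fold change was -1.0, and with 1 library left out it ranged from -0.0116 to 0.0524. That of Gclm became -0.02 with equal sums and ranged from -0.0346 to 0.1312 with 1 library left out, and that of Keap1 ranged from -0.0657 to 0.0262. That of maf-S became -0.023 with equal sums. Apart from scaling and the libraries left out, the cause of these changes was not tested. With 3 libraries a food and no counts per library, the median half-width of the 95% interval of the 10 genes was 0.15 on the log2 scale, which limits what differences could be seen.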
